A study of Mus musculus with 2 samples.

Results

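Mt1 and Mt2 encode metallothioneins, and Slc30a1 encodes the zinc exporter ZnT1. These 3 genes were followed among the 32285 genes counted in CD8+ T cells from B16 melanoma tumors (CD8+ TIL) of lean and obese mice. They were picked by symbol, with their levels in these libraries and their link to Havcr2 and Gzmc already known, so the levels below are given as a description and carry no test. Havcr2 encodes the inhibitory receptor Tim3, and Gzmc encodes granzyme C, a serine protease of cytotoxic granules. All 3 genes were found in the deposited tables by 1 symbol each.

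Metallothioneins are small proteins, rich in cysteine, that bind zinc and copper ions in the cytosol. Their genes are switched on by the zinc-sensing transcription factor MTF1, which binds metal response elements in their promoters, and also respond to glucocorticoids and to oxidative stress. ZnT1 sits in the plasma membrane, carries zinc out of the cell, and is itself a target of MTF1. In CD8+ T cells within tumors, metallothionein transcripts have been described together with the program of dysfunction that includes Tim3.

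The study asked how obesity changes CD8+ T cells inside tumors. The samples were C57Bl/6J mice, male and 16 weeks old, that carried a transplanted B16 F0 tumor, a mouse melanoma line. The lean group had been fed normal chow and the obese group a western diet, and each group gave 1 library. CD8+ TIL were enriched on magnetic beads, sorted on CD8 and read by 3' single-cell RNA sequencing, in which a UMI marks 1 captured transcript. The labels named no altered allele or transgene, and the number of mice pooled in each library was not given. With 1 library per diet there is no replicate, so all intervals below are 95% intervals that cover counting error only, and the diet and the library cannot be told apart.

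The lean library held 2456 cells and 27815785 UMIs after the filters, and the obese library held 2289 cells and 28705830 UMIs. The median depth was 7958 UMIs per cell in the lean and 9103 in the obese library. The 2 libraries shared 3 of these cell barcodes. All 6 CD8 T cell markers (Cd8a, Cd8b1, Cd3d, Cd3e, Cd3g and Trac) were detected in both, at a summed 5722 CPM (UMIs per 1000000 UMIs) in the lean and 5009 CPM in the obese library. The summed markers of melanoma cells reached 1.22 and 1.43 CPM with Tyr at 0 in both, and those of fibroblasts 0.395 and 0.488 CPM. Markers of dendritic-like cells summed to 274 and 313 CPM, of B cells to 40.9 and 64.7 CPM, and of NK cells, some of which CD8+ T cells also express, to 32.2 and 51.7 CPM. The dendritic-like markers stood at 317 and 316 CPM in the effector-like cluster 3, described below, with Siglech and Flt3 at 0, and at 51.3 and 33.3 CPM in cluster 2. The dendritic-like cluster 5 held 9 lean and 21 obese cells. Red cell markers (4 globin genes) were at 0 in the lean library and at 320.2 CPM in the obese one, where 9179 of their 9193 UMIs lay in cells without Mt1, and their part in the levels was not tested.

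Mt2 and Mt1 lie side by side on chromosome 8 of GRCm38, on the plus strand, with 5513 bases between them. Mt2 spans chr8:94172664-94173568 and Mt1 spans chr8:94179082-94180327. Each has 3 exons. Slc30a1 spans chr1:191906767-191913247, also on the plus strand, with 2 exons. The longest run of bases that an Mt1 transcript shares with an Mt2 transcript was 20 bases. The 250 bases before the RefSeq start of each gene (GRCm38.p6, plus strand) are shown because Mt1 and Mt2 moved together across cells. Slc30a1, with 106 lean and 149 obese UMIs, was too rare to tell whether it moved with them from cell to cell. Across the pooled classes of cells with and without Havcr2 or Gzmc, described below, it did not follow them. Capitals mark matches, on either strand, to the letters TGCACNC or TGCGCNC, the core of the metal response element.
Mt1: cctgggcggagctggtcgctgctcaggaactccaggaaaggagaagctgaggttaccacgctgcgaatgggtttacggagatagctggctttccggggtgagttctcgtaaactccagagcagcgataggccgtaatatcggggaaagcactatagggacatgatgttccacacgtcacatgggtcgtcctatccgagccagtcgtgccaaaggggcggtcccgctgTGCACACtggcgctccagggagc
Mt2: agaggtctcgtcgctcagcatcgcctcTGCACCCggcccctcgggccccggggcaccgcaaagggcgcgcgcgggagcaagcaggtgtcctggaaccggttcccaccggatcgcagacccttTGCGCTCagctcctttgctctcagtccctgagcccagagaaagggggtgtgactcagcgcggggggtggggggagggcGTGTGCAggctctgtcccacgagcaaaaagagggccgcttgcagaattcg
Slc30a1: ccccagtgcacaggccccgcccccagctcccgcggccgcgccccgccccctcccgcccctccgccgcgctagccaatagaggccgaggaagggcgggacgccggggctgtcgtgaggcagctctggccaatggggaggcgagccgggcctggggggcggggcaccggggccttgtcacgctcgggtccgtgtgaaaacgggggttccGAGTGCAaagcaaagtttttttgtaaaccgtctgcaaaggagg

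These windows are chr8:94178839-94179088 for Mt1, chr8:94172368-94172617 for Mt2 and chr1:191906531-191906780 for Slc30a1. Mt1 held 1 match in them, Mt2 held 3 and Slc30a1 held 1. Of 32851 RefSeq promoters of this length, 21.4% held at least 1 match and 1.26% held at least 3. With the 50 bases after the start included, Mt1 had 3 matches, Mt2 had 4 and Slc30a1 had 2, and 7.11% of all such windows held at least 2. The annotation lists 3 starts for Mt1 transcripts that lie up to 159 bases apart. It lists 2 for Mt2, 196 bases apart, and 2 for Slc30a1, 489 bases apart. A window around another start would hold other letters. The RefSeq windows end 50 bases after the start, and bases between there and the later starts were not searched. The counts for Mt1, Mt2 and Slc30a1 can therefore be too low. A match of these letters does not show that MTF1 binds there.

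Mt1 transcripts were more abundant in the lean than in the obese library. In the lean library 9808 Mt1 UMIs were counted, a level of 353 CPM (interval 346 to 359.7), and in the obese library 4044 UMIs, a level of 141 CPM (137 to 145). The log2 ratio of obese over lean was -1.32 (-1.38 to -1.27), a lean level 2.5 times the obese one. With all deposited cells kept, it was -1.09 (-1.13 to -1.05). A UMI of Mt1 was found in 988 lean cells (40.2%) and 814 obese cells (35.6%), so the shares of cells with Mt1 differed less than the levels did. With every cell thinned to 2000 UMIs, the shares were 20.2% (18.6 to 21.9) and 14.1% (12.7 to 15.6), with 126 lean and 112 obese cells left out as too shallow.

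Mt2 followed the same order at a lower count. The lean library gave 2100 Mt2 UMIs, a level of 75.5 CPM (72.3 to 78.8), and the obese library 815 UMIs, a level of 28.4 CPM (26.5 to 30.4). Obese over lean, this was a log2 ratio of -1.41 (-1.53 to -1.29). Mt2 was found in 500 lean cells (20.4%) and 340 obese cells (14.9%). Among the 7064 genes with at least 10 CPM in 1 library, 27 (0.382%) had a log2 ratio of -1 or lower, Mt1 and Mt2 among them. This contrast was part of the choice of the genes, and nothing is read from their place in it.

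Slc30a1 was rare in both libraries. It gave 106 UMIs in the lean library, a level of 3.81 CPM (3.12 to 4.61), and 149 UMIs in the obese library, a level of 5.19 CPM (4.39 to 6.09). It was found in 96 lean cells (3.91%) and 138 obese cells (6.03%), with no more than 3 UMIs in any cell. The log2 ratio of obese over lean was 0.45 (0.077 to 0.82), opposite in sign to those of Mt1 and Mt2. The sign did not hold when cells were weighted equally, where the log2 ratio was -0.013, nor with cells thinned to 1000 UMIs, where it was -0.21 (-1.44 to 0.99). The thinned interval held the main value of 0.45 as well. At this depth no direction can be given for Slc30a1, and it lay under the 10 CPM limit for comparison with other genes.

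The Mt1 and Mt2 UMIs were spread very unevenly over cells. In the lean library 231 cells held 10 or more Mt1 UMIs and 12 cells held 100 or more, with a maximum of 422. In the obese library 101 cells held 10 or more, none held 100, and the maximum was 74. Cells at 1000 CPM or more made up 3.95% of the lean library and held 52.1% of its Mt1 UMIs, against 1.14% of the obese cells with 13.8% of the UMIs. The 10 cells with the most Mt1 held 25.3% of all Mt1 UMIs in the lean and 11.9% in the obese library. Without these 10 cells of each library the levels were 266 and 126 CPM, and the log2 ratio was -1.08 (-1.14 to -1.02). The maximum for Mt2 was 114 UMIs in the lean and 23 in the obese library, and without the 10 highest cells its log2 ratio was -1.19 (-1.33 to -1.06).

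**Figure D1:**
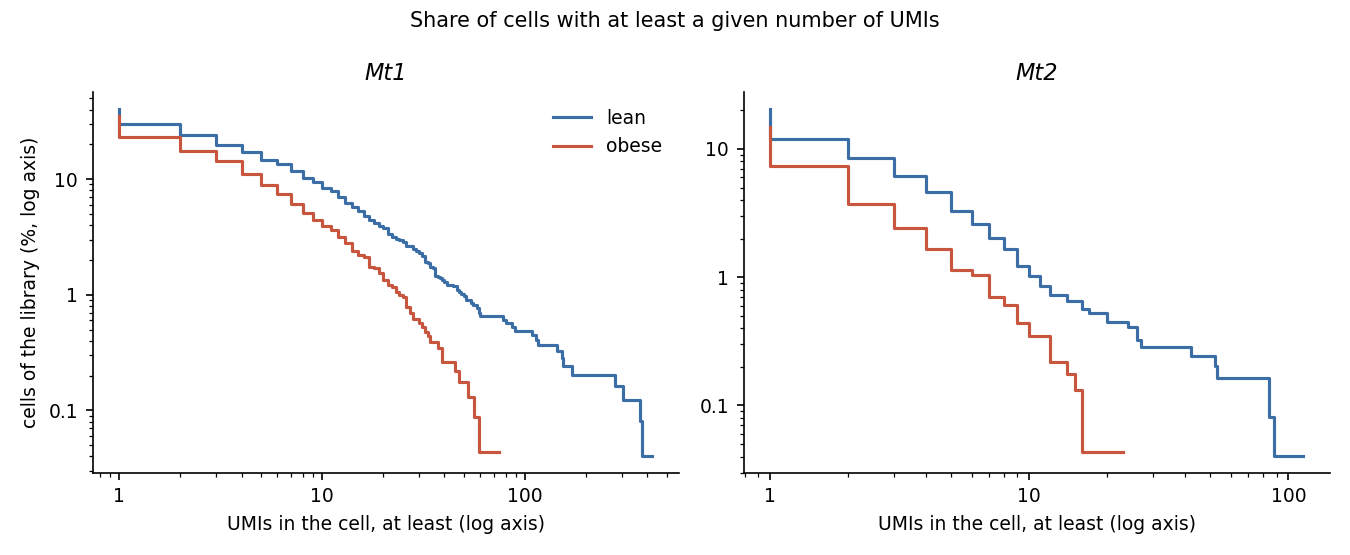
Share of cells (percent, log axis) that held at least the number of UMIs on the horizontal axis (log axis), for Mt1 and Mt2 in the lean library (blue) and the obese library (red). The 2 lines start close together at 1 UMI, at 40.2% and 35.6% of cells for Mt1, and part toward high counts, where the lean line runs to 422 Mt1 UMIs and the obese line ends at 74.

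The 10 lean cells with the most Mt1 held 116 to 422 Mt1 UMIs and 5 to 114 Mt2 UMIs, in cells of 4167 to 42656 UMIs in all. All 10 held Cd8a, 9 held Havcr2, 9 held Gzmc and 2 held Slc30a1. None of them held a UMI of a melanoma or fibroblast marker, and the 7 myeloid markers summed to 4 UMIs over the 10 cells. The 10 obese cells with the most Mt1 held 34 to 74 Mt1 UMIs, in cells of 29305 to 49819 UMIs, against a library median of 9103. All 10 held Cd8a and Havcr2, 7 held Gzmc and 1 held Slc30a1. They held no melanoma marker, and their myeloid markers summed to 5 UMIs. Ranking by UMIs favors deep cells, in which Havcr2 and Gzmc are found more often. In the obese cells at or over 50000 UMIs, which were left out here, Havcr2 was found in 90.9% and Gzmc in 54.5%. No share was taken in cells of the same depth, so the counts in the 10 cells of either library do not measure a link. Over all cells with Mt1 the melanoma markers summed to 1.27 CPM in the lean and 1.56 CPM in the obese library, against 1.14 and 1.26 CPM in cells without it, and the myeloid markers to 17.3 and 26.7 CPM against 35.7 and 35.0 CPM.

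Cells were then divided by whether a UMI of Havcr2 or Gzmc had been found in them. Mt1 was highest in cells with both. In the lean library, 257 cells with both held Mt1 at 838 CPM (816 to 860.5). The 604 lean cells with Havcr2 alone held 353 CPM, the 49 with Gzmc alone 427 CPM, and the 1546 with neither 71.5 CPM (66.7 to 76.5). In the obese library, 113 cells with both held Mt1 at 326 CPM (307 to 346). The 495 obese cells with Havcr2 alone held 186 CPM, the 14 with Gzmc alone 126 CPM (88.1 to 176), and the 1667 with neither 72.2 CPM (68.1 to 76.6). In both libraries the cells with both stood highest and those with neither lowest. The lean value for Gzmc alone rested on 1 cell, without which it was 202 CPM.

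Cells with neither Havcr2 nor Gzmc held Mt1 at nearly the same level in the 2 libraries, with a log2 ratio of obese over lean of 0.016 (-0.12 to 0.15). This class mixes clusters, described below, whose ratios had opposite signs. Of its cells, those of cluster 3 held 189 CPM in the lean and 83.9 CPM in the obese library, a log2 ratio of -1.17 (-1.43 to -0.92), while those of cluster 1 held 112 and 138 CPM, a log2 ratio of 0.30 (0.077 to 0.52). Cluster 1 gave 120 of the lean and 229 of the obese cells with neither, and cluster 2, where Mt1 was lowest, gave 558 and 422. All cells without Havcr2 had a log2 ratio of -0.33 (-0.45 to -0.21). In the other classes the log2 ratio was -1.36 (-1.46 to -1.27) in cells with both and -0.93 (-1.01 to -0.84) in cells with Havcr2 alone. Without the 10 highest cells of each library it was -1.07 in cells with both, where the lean level dropped from 838 to 527 CPM. The intervals of these ratios and that of cells with neither did not overlap, which concerns counting error between 2 libraries and not mice. The classes were not matched between the libraries in the genes that define them. Lean and obese cells with both held Havcr2 at 167 and 119 CPM and Gzmc at 764 and 452 CPM. Those with Havcr2 alone held Havcr2 at 188 and 123 CPM. Median depth was 25092 and 31027 UMIs with both, and 12072 and 17690 UMIs with Havcr2 alone.

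**Figure D2:**
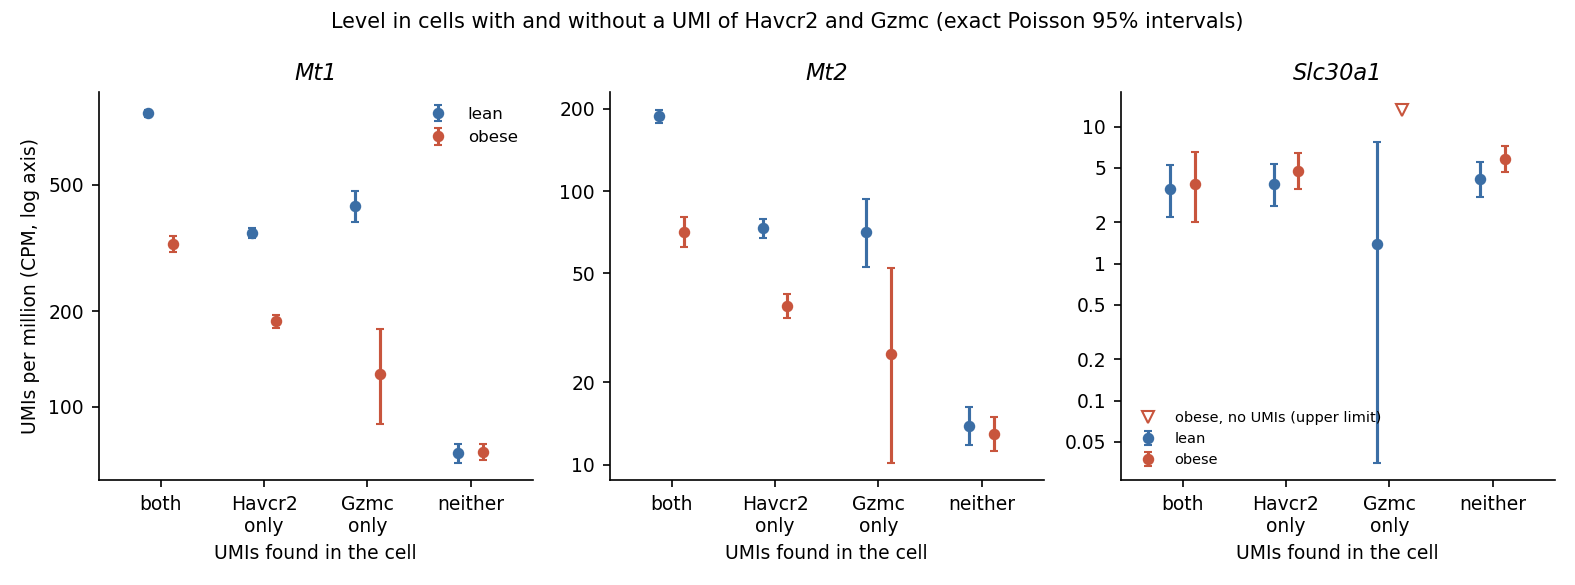
Level of Mt1, Mt2 and Slc30a1 (CPM, log axis) in cells with a UMI of both Havcr2 and Gzmc, of 1 of them, or of neither, in the lean (blue) and obese (red) library, with exact Poisson 95% intervals. The open triangle is the upper limit for the 14 obese cells with Gzmc alone, in which no Slc30a1 UMI was found. Mt1 lies at 838 and 326 CPM in cells with both and at 71.5 and 72.2 CPM in cells with neither.

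Mt2 kept the pattern of Mt1. Its level was 188 CPM in lean cells with both Havcr2 and Gzmc, 73.0 CPM with Havcr2 alone, 70.9 CPM with Gzmc alone and 13.9 CPM (11.8 to 16.2) with neither. The obese levels were 71.0, 38.1, 25.3 and 13.0 CPM (11.2 to 14.9) in the same order. In cells with both, the log2 ratio of obese over lean was -1.40 (-1.61 to -1.20), and in cells with neither it was -0.10 (-0.40 to 0.21). The cells with neither again mixed unlike clusters. Those of cluster 3 held Mt2 at 42.75 and 12.6 CPM, a log2 ratio of -1.76 (-2.44 to -1.13). In cluster 1 the ratio was 0.25 (-0.26 to 0.79), and in cluster 4 it was 2.48 (0.21 to 5.73), on 2 and 9 UMIs. Slc30a1 did not follow the pattern of Mt1. Its level was 3.48 CPM (2.21 to 5.22) in lean cells with both and 4.14 CPM (3.05 to 5.49) in lean cells with neither, and 3.82 CPM (2.03 to 6.53) and 5.84 CPM (4.70 to 7.18) in the obese library.

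Taken against all cells without Havcr2, the 861 lean cells with Havcr2 held Mt1 at 559.6 CPM against 92.2 CPM, a log2 ratio of 2.60 (2.51 to 2.69). In the obese library the levels were 222 and 73.2 CPM, a log2 ratio of 1.60 (1.5 to 1.7). For Gzmc the log2 ratio of Mt1 was 2.04 (1.99 to 2.10) in the lean and 1.42 (1.32 to 1.52) in the obese library. Without the 10 highest cells these 4 values were 2.40, 1.38, 1.41 and 1.13. For Mt2 the log2 ratio was 2.82 and 1.82 for Havcr2, and 2.16 and 1.58 for Gzmc, in the lean and the obese library. A log2 ratio of 1 or higher was found for 5.46% of genes for Havcr2 in the lean library and 4.46% in the obese one, and for Gzmc for 1.82% and 1.62%. These links also belong to the choice of the genes and are not read against that background. The 4 values for Slc30a1 ran from -0.62 to -0.11, and the interval of each included 0 and ended at or under 0.47.

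Cells with Havcr2 were deeper than those without, with medians of 15634 and 6793 UMIs in the lean and 19868 and 7812 in the obese library. Cells were therefore thinned to 2000 UMIs and grouped by the Mt1 UMIs left in them. Among lean cells with 0 Mt1 UMIs, Havcr2 was found in 10.3% of 1860 cells (9.0 to 11.8), and among those with 3 or more in 40.2% of 97 cells (30.4 to 50.7). The obese shares were 6.63% of 1870 cells (5.55 to 7.86) and 33.3% of 21 cells (14.6 to 57.0). Gzmc went from 3.66% to 23.7% of lean cells, and in the obese library from 1.55% of cells without Mt1 to 11.7% (4.8 to 22.6) of the 60 cells with 2 Mt1 UMIs. None of the 21 obese cells with 3 or more held Gzmc, which allows a share of up to 16.1% of such cells with a Gzmc UMI at 2000 UMIs, by the exact binomial limit, and sets no limit on cells that express Gzmc. Slc30a1 was found in 0.806% of lean and 1.12% of obese cells without Mt1, in 2.19% of 274 lean cells (0.81 to 4.71) and 0.885% of obese cells with 1 Mt1 UMI, and in 1 of the 97 lean and none of the 21 obese cells with 3 or more.

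**Figure D3:**
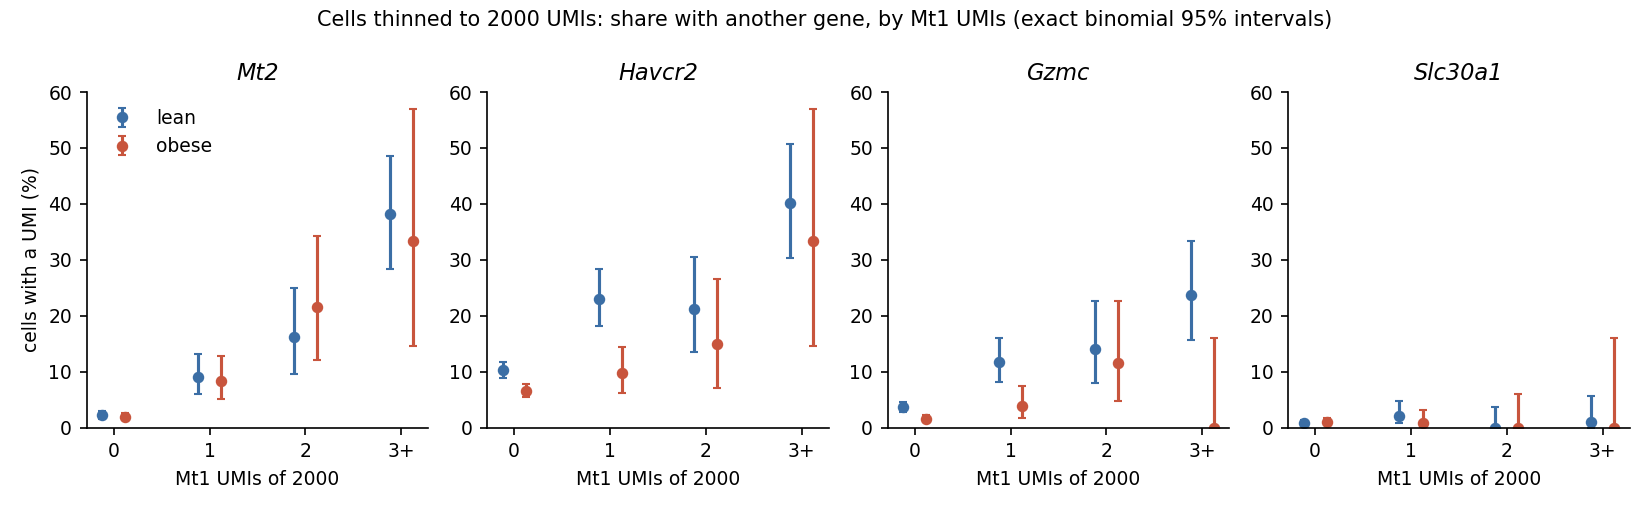
Share of cells (percent) with a UMI of Mt2, Havcr2, Gzmc or Slc30a1 after every cell was thinned to 2000 UMIs, by the number of Mt1 UMIs left in the cell, in the lean (blue) and obese (red) library, with exact binomial 95% intervals. The shares of Mt2 and Havcr2 are higher with 3 or more Mt1 UMIs than with none in both libraries, at 40.2% against 10.3% for Havcr2 in lean cells, and Slc30a1 reaches 2.19% at most, with wide intervals.

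Most cells with Mt2 also held Mt1. Of the 500 lean cells with Mt2, 465 (93.0%) also held Mt1, which was found in 26.7% of lean cells without Mt2. In the obese library 290 of 340 cells with Mt2 (85.3%) held Mt1. At 2000 UMIs per cell the shares were 65.0% (55.8 to 73.5) against 17.7% in the lean and 52.0% (40.2 to 63.7) against 12.7% in the obese library. In the other direction, Mt2 was found in 47.1% of lean and 35.6% of obese cells with Mt1. At 2000 UMIs these were 16.6% and 12.7%, against 2.26% and 1.93% of cells without Mt1. The number of Mt1 UMIs per Mt2 UMI was 4.67 (4.46 to 4.90) in the lean and 4.96 (4.60 to 5.36) in the obese library. It was 4.47 and 4.59 in cells with Havcr2 and Gzmc, and 5.15 and 5.57 in cells with neither, with intervals that overlapped within each library.

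Clustering left out the 3 genes, Havcr2, the Gzmc granzymes and the gene lists. It was run at the lowest resolution that gave 6 clusters, a number set beforehand, and these were numbered from 0. Cluster 0 was interferon-stimulated-like (Ifit1, Ifit3, Isg15), cluster 1 proliferating-like (Birc5, Stmn1, Cks1b), cluster 2 naive- or memory-like (Lef1, Tcf7, Ccr7) and cluster 3 effector-like (Gzmd, Gzme, Gzmf). Cluster 3 made up 25.2% of lean and 13.4% of obese cells. Gzmf was found in 11.1% of all lean and 2.66% of all obese cells, and Gzmd and Gzme in fewer. Only part of the cells of cluster 3 therefore held these 3 genes. The 8 effector-like markers summed to 10751 CPM in cluster 3 and 7304 CPM in cluster 1 of the lean library. In the obese library they summed to 5950 and 4468 CPM. Lean cells of cluster 1 thus stood above obese cells of cluster 3, and the name covers unlike levels in the 2 libraries. Cluster 4 was shallow and was left without a name. Its list was led by the 4 globin genes, which were found in the obese library only. Cluster 5 held 30 dendritic-like cells. Mt1 was highest in cluster 3 of the lean library, at 658 CPM (641 to 676) in 619 cells, and the 307 obese cells of that cluster held 152 CPM (141 to 163). In cluster 1 the levels were 355 CPM in 482 lean cells and 205 CPM in 582 obese cells, the highest obese level of the clusters. In cluster 2 they were 7.62 CPM (5.27 to 10.6) and 11.1 CPM (7.9 to 15.2), and in cluster 0 they were 58.6 and 59.5 CPM. Cluster 4 held Mt1 at 106 CPM in lean and 79.1 CPM in obese cells. Its Havcr2 levels were 201 and 163 CPM, above the 164 and 84.8 CPM of cluster 3, where Mt1 was higher.

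The difference between the libraries varied over the clusters by more than counting error. The log2 ratio of obese over lean for Mt1 was -2.12 (-2.23 to -2.00) in cluster 3, -0.79 (-0.86 to -0.72) in cluster 1, 0.020 (-0.26 to 0.31) in cluster 0 and 0.54 (-0.16 to 1.25) in cluster 2. For Mt2 it was -2.48 (-2.76 to -2.21), -0.82 (-0.97 to -0.67), 0.065 (-0.66 to 0.83) and 1.48 (-0.16 to 3.36) in the same clusters, with 5 and 11 Mt2 UMIs in all in cluster 2. In cluster 4 the log2 ratio was -0.43 (-0.91 to 0.047) for Mt1 and 0.66 (-0.59 to 1.97) for Mt2. Without the 10 highest cells of each library, the Mt1 levels in cluster 3 were 406 and 143 CPM and the log2 ratio was -1.51. Of these highest cells, 8 lean ones lay in cluster 3 and 9 obese ones in cluster 1. Averaged over the 5 clusters of at least 50 cells per library with equal weight, the shallow cluster 4 among them, the log2 ratio was -0.55 for Mt1 and -0.22 for Mt2.

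**Figure D4:**
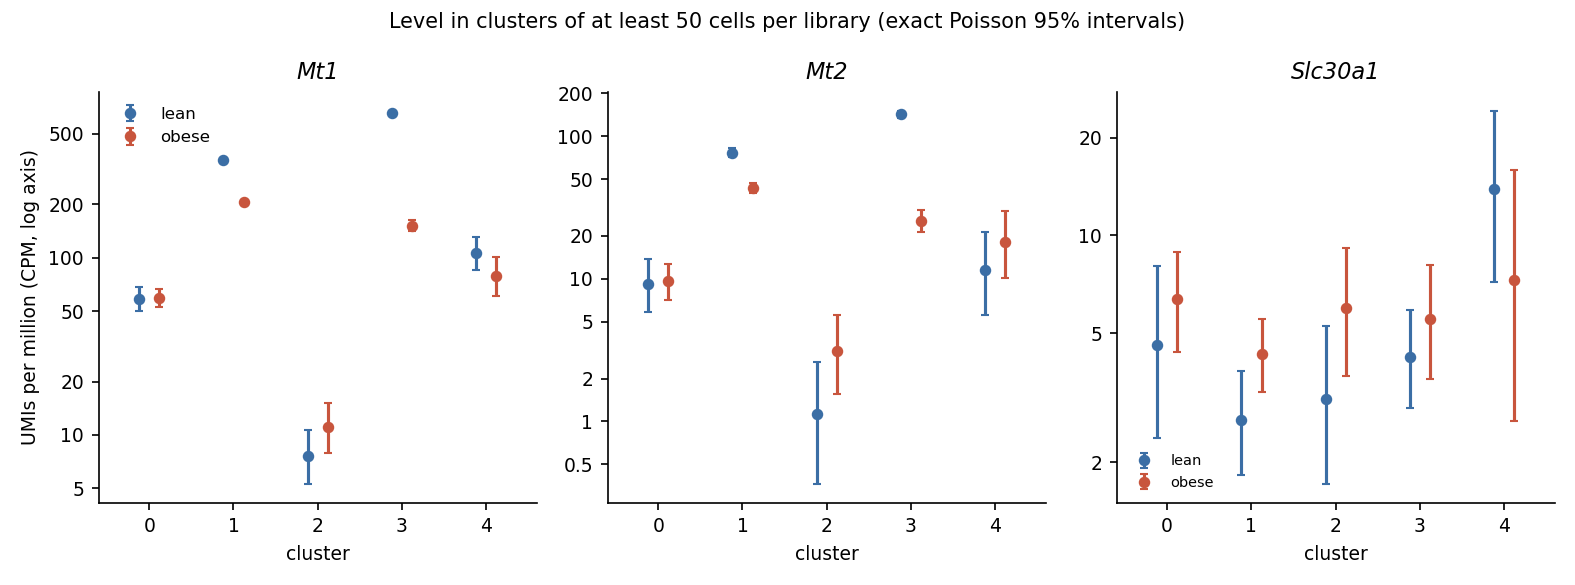
Level of Mt1, Mt2 and Slc30a1 (CPM, log axis) in the 5 clusters with at least 50 cells per library, in the lean (blue) and obese (red) library, with exact Poisson 95% intervals. In cluster 3 Mt1 lies at 658 CPM in lean and 152 CPM in obese cells, and in cluster 0 the 2 libraries coincide at 58.6 and 59.5 CPM. The Slc30a1 intervals overlap between the libraries in each cluster. Its log2 ratio of obese over lean was 0.67 (0.029 to 1.35) in cluster 1, and the intervals of its ratio in clusters 0, 2, 3 and 4 included 0.

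The share of cells with Mt1 in cluster 2, the lowest of the clusters over 50 cells, was 4.23% at a median of 7473 UMIs in the lean and 6.86% at 7827 UMIs in the obese library. The effector-like cells of cluster 3 held it in 69.6% of lean cells at a median of 11118 UMIs and in 52.8% of obese cells at 13757 UMIs. At 2000 UMIs the lean shares were 1.23% and 37.8%, and the obese shares 1.89% and 20.5%. In the proliferating-like cluster 1, 79.7% of lean cells held Mt1 at a median of 22165 UMIs, and 34.0% at 2000 UMIs. For Slc30a1 the shares at 2000 UMIs lay at or under 1.18% in clusters 0 to 3 of both libraries. In the shallow cluster 4 they were 3.83% of 183 lean cells (1.55 to 7.72) and 2.16% of 139 obese cells (0.45 to 6.18), at 13.9 and 7.3 CPM on 12 and 6 UMIs. The part of free RNA picked up in droplets in these shares was not tested.

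Within clusters 1 and 3, Mt1 was also higher in cells with Havcr2 or Gzmc than in cells without. In lean cells of cluster 3, Mt1 stood at 836 CPM in 401 cells with Havcr2 and at 191 CPM in 218 cells without, and at 1578 CPM in 119 cells with Gzmc against 297 CPM in 500 cells without. Without the 10 highest cells the lean level with Gzmc was 709.6 CPM. In obese cells of cluster 3 the levels were 209 against 87.3 CPM for Havcr2 and 340.0 against 109 CPM for Gzmc. In the proliferating-like cluster 1 the log2 ratios for Havcr2 were 1.04 (0.90 to 1.17) in lean and 0.81 (0.68 to 0.94) in obese cells, and for Gzmc 0.63 and 0.77. In cluster 0 the log2 ratios for Havcr2 were 1.84 (1.25 to 2.40) in 25 lean cells with Havcr2 against the rest and 0.98 (0.48 to 1.45) in 50 obese cells. Cluster 4 gave 1.01 (0.38 to 1.65) in lean cells, while the obese value of 0.25 (-0.49 to 1.0) was within counting error. For Mt2 the obese value in cluster 4 was -0.73 (-2.50 to 0.92), on 6 and 9 UMIs. The Gzmc granzymes lead cluster 3 by their level although they were kept out of the clustering, so cluster and Gzmc class are not independent.

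Mt3, another metallothionein that lies 18517 bases before Mt2 and is best known from the brain, was also detected and is no member of the group. It gave 1412 UMIs in the lean library, a level of 50.8 CPM, and 755 UMIs in the obese library, a level of 26.3 CPM. Its log2 ratio of obese over lean was -0.95 (-1.08 to -0.82). It was found in 52.5% of lean cells with Mt1 and 5.99% of those without. At 2000 UMIs per cell these shares were 15.5% and 4.46%, and in the obese library 7.82% and 2.46%. Unlike Mt1, its log2 ratio was -0.60 (-0.90 to -0.29) in cells with neither Havcr2 nor Gzmc. Mt3 transcripts share a run of 27 bases with Mt1, and Mt4 was listed at 0 in both libraries.

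Mtf1, which encodes the metal sensor, differed little, at 24.4 CPM in the lean and 21.0 CPM in the obese library with a log2 ratio of -0.21 (-0.37 to -0.05). Of the 5 genes in the list of metallothioneins and their sensor, the 4 that could be compared were Mt1, Mt2, Mt3 and Mtf1, all lower in the obese library beyond counting error. Mt1 and Mt2 were chosen with this contrast known, so that count is not independent of the choice. Over all 7064 genes compared, 2092 were higher and 1354 lower in the obese library beyond counting error, with a median of 0.035. Of 10 zinc exporters of the Slc30 family, 2 reached 10 CPM. Slc30a9 had a log2 ratio of -0.38 (-0.55 to -0.21) and Slc30a5 of 0.033 (-0.17 to 0.24). Of 14 zinc importers of the Slc39 family, 4 reached 10 CPM, with a median of -0.076. Slc39a10, a plasma membrane importer, was at 16.6 CPM in the lean and 8.5 CPM in the obese library, a log2 ratio of -0.96 (-1.19 to -0.74). Slc39a7 and Slc39a6 had log2 ratios of 0.10 (-0.05 to 0.25) and 0.19 (0.013 to 0.37), and Slc39a1 of -0.25 (-0.43 to -0.07).

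**Figure D5:**
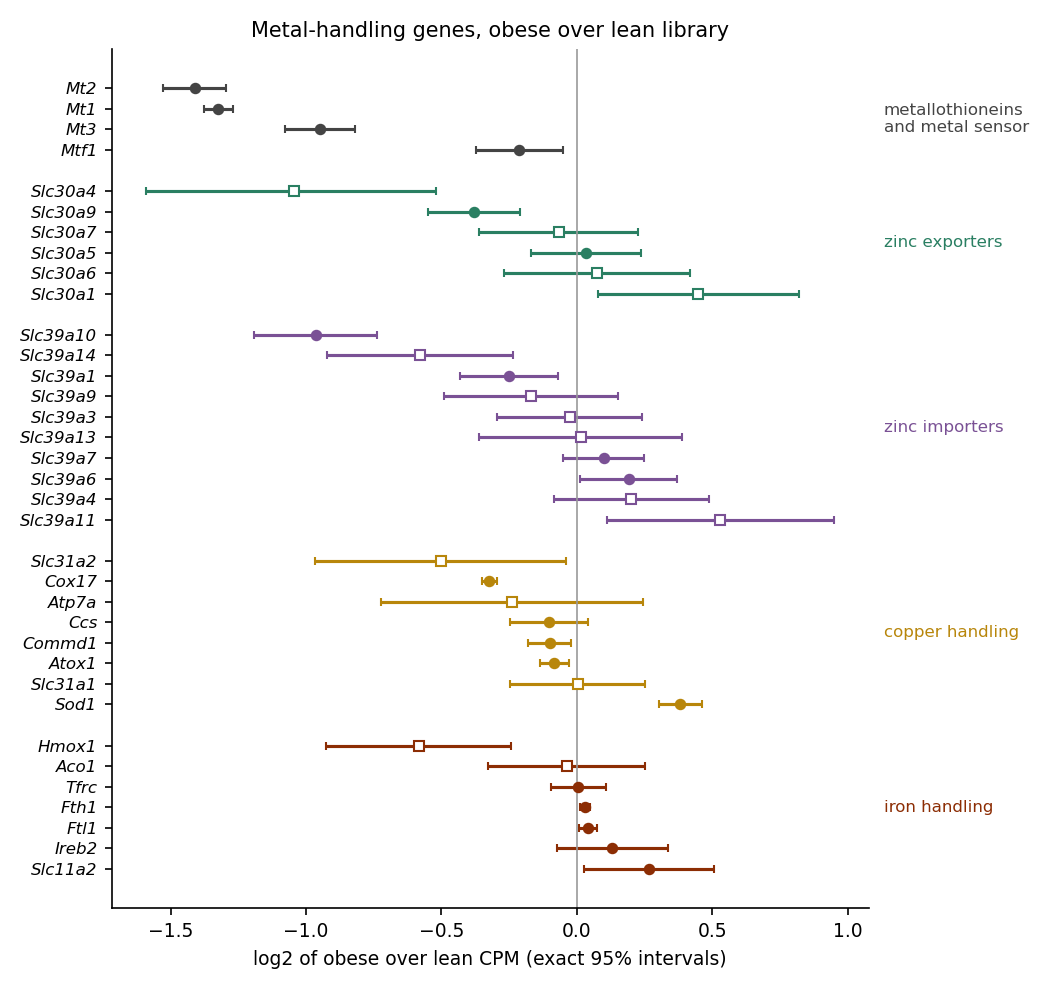
Log2 ratio of obese over lean CPM, with exact 95% intervals, for genes of metal handling with at least 100 UMIs in the 2 libraries together. Filled circles are genes at 10 CPM or more in 1 library, open squares are genes under it. Mt2, Mt1 and Mt3 lie at -1.41, -1.32 and -0.95, while most copper and iron genes lie close to 0.

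Copper handling (5 genes compared) had a median log2 ratio of -0.10. Cox17, the copper chaperone of cytochrome oxidase, stood at -0.32, Atox1 at -0.08 and the superoxide dismutase Sod1 at 0.38. Iron handling (5 genes) had a median of 0.041, with both ferritin chains, Fth1 and Ftl1, at 0.03 and 0.04. The Nrf2 antioxidant targets (6 genes) had a median of 0.090, with Prdx1 at 0.06. The glucocorticoid targets (7 genes) had a median of 0.33, with 6 higher in the obese library beyond counting error, among them Dusp1 at 0.79 and Tsc22d3 at 0.20. The interval of the remaining gene included 0. The hypoxia targets (8 genes) had a median of -0.49, with 7 lower in the obese library beyond counting error and 1 whose interval included 0. Among the 7 were Bnip3 at -1.36, which was chosen for naming after its value was seen, and Higd1a at -0.23. Over all 7064 genes compared, 2092 were higher and 1354 lower by the same rule. The STAT3 and IL-27 axis (7 genes) had a median of -0.0010, with Stat3 at -0.06 and the cytokine signaling inhibitor Socs3 at 0.63.

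The checkpoint and dysfunction genes (9 compared) had a median log2 ratio of -0.49, with 7 lower and 2 higher in the obese library beyond counting error. Of the 7064 genes compared, 1354 were lower and 2092 higher by the same rule. Lag3 was at -0.89, Pdcd1 at -0.49, Havcr2 at -0.85 (99.5 and 55.2 CPM) and Tox, a transcription factor of exhausted T cells, at 0.31. All 5 granzymes of the Gzmc cluster that were detected were lower in the obese library. Both lists, which hold Havcr2 and Gzmc, were chosen with earlier results of these data known, so these counts are not independent of the choice. Gzmc itself was at 190.5 CPM in the lean and 55.1 CPM in the obese library, a log2 ratio of -1.79 (-1.87 to -1.71), and Gzmf was at -3.75. Gzmf was counted 8088 times in the lean and 622 times in the obese library.

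To find genes whose pattern over cells was most like that of each member, Pearson correlations of log-normalized values were computed over the cells of each library, for 8435 genes found in at least 5% of cells of both. Cells of 1 library share its depth and preparation, so the values are given as a description. For Mt1, Mt2 came first (r = 0.68 over 2456 lean and 0.46 over 2289 obese cells). It was followed by Gzmb, the main granzyme of cytotoxic T cells (0.55 and 0.40), Lgals1 (0.48 and 0.39), Gapdh (0.46 and 0.39), Anxa2 (0.47 and 0.37) and Mt3 (0.45 and 0.36). S100a4, Actg1, the pore-forming protein gene Prf1 and S100a11 completed the first 10. Havcr2 held rank 41 (0.38 and 0.26) and Gzmc rank 97 (0.34 and 0.20). The lowest values belonged to Malat1 (-0.32 and -0.32), Klf2, Emb, Tcf7 and Junb, of which Klf2 and Tcf7 mark naive and memory T cells.

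For Mt2 the first 10 genes were Mt1, Gzmb (0.40 and 0.28), Prf1 (0.37 and 0.24), Gapdh, Mt3, Anxa2, the glycolytic enzyme gene Aldoa, Rps27l, Lgals1 and Dut, and the lowest were Malat1, Lars2, Gm42418, Gm20186 and Klf2. With cells thinned to 2000 UMIs the correlation of Mt1 with Mt2 was 0.38 and 0.24, and with Gzmb 0.39 and 0.22. Slc30a1 had no gene with a mean correlation above 0.08. Tinf2 headed its list at 0.15 in the lean and 0.01 in the obese library, and of its first 10 genes 0 came back by rank correlation or after thinning, so no gene is put forward as alike. The correlation of Slc30a1 with Mt1 was 0.03 and 0.02, which at 106 and 149 UMIs cannot show whether the 2 genes move together from cell to cell.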

How the data were processed

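Single-cell RNA of CD8+ TIL was measured in 1 lean and 1 obese library. The authors aligned reads to mm10 with Cell Ranger 6.0.2, per the labels, and deposited raw UMI counts per gene and cell without normalization. The limits the study states were applied here to the deposited cells, which kept those with under 7.5% mitochondrial UMIs and over 500 and under 50000 UMIs, which left out 241 of 2697 lean and 334 of 2623 obese cells. Since these deposited totals are also the cell numbers the study analysed after its own filters, the set used here is smaller than the study's. Doublets were not removed and no caller was run.

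For each class of cells a CPM was the gene's summed UMIs over the summed UMIs of the class in that library, with exact Poisson intervals for levels, Clopper-Pearson intervals for shares and exact conditional binomial intervals for log2 ratios (Python 3.11.15, scipy 1.17.1), at 95%. A count of 0 over a whole library allows up to 3 counts, 0.108 CPM in the lean and 0.105 CPM in the obese library. These intervals do not cover the spread between cells or mice. Since each diet had 1 library, no test was run. Log-normalized values were scaled to 10000 UMIs per cell. Thinning drew UMIs without replacement to 2000 per cell. Clusters came from Seurat 5.3.0 in R 4.3.3 (2000 variable genes, 97 genes left out, 20 principal components, resolution 0.15). This resolution was the lowest tried that gave the number of clusters set beforehand. The log2 ratios and their intervals were checked on simulated Poisson counts, which hold no spread between cells. Thinning was checked by the totals of thinned lean cells, and the other steps were not checked in this way.

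The members and lists were chosen with earlier results of these data known. Named genes are the members, Havcr2, Gzmc, and the 10 genes most and 5 least like each member. Up to 4 genes are named per list, taken from the 4 with the most UMIs, with exceptions stated. Positions come from the GRCm38 annotation (GENCODE vM21), which held 99.8% of the gene identifiers, and promoters from RefSeq. Alternatives covered scaling (TMM factors from edgeR 4.0.16), cell weights, thinning, cell filters, purity, the deepest and the highest cells, cut-offs and clusters.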

Additional observations from a re-analysis of the deposited data

Results flagged for a closer look

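Cells at or over the upper depth limit of 50000 UMIs were outside the comparisons and also held the metallothionein transcripts. In the 83 such lean cells Mt1 stood at 423 CPM and Mt2 at 107 CPM, and in the 121 such obese cells Mt1 stood at 264 CPM and Mt2 at 63.8 CPM. Each of these 4 levels was above that of the cells within the limit in the same library, and Mt1 was found in all 83 of the lean and 97.5% of the obese cells. Slc30a1 stood at 3.30 and 3.77 CPM in them. No doublet call was made on these cells. Havcr2 was found in 97.6% of the lean and 90.9% of the obese ones, and Gzmc in 81.9% and 54.5%. Cells within the limit that held both genes stood higher, at 838 and 326 CPM for Mt1 and 188 and 71.0 CPM for Mt2. The cells with 7.5% or more mitochondrial UMIs held Mt1 at 80.4 CPM in 158 lean and 59.7 CPM in 213 obese cells.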

How the results depend on the processing

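The log2 ratio of obese over lean was negative for Mt1 and Mt2 under all 12 alternatives each, from -1.44 to -0.55 and from -1.61 to -0.22. For Mt1 it left its counting interval with cells thinned to 1000 UMIs (-1.22) and with all deposited cells (-1.09). It also did so without the 5% deepest cells (-1.44), without the 10 highest cells (-1.08) and as a mean over clusters (-0.55). For Mt2 it did so as a mean over cells (-1.23), thinned to 2000 UMIs (-1.18) and with all deposited cells (-1.12). It also did so without the 5% deepest (-1.61) or the 10 highest cells (-1.19) and over clusters (-0.22). The intervals of these 2 thinned values, -1.45 to -0.98 for Mt1 and -1.56 to -0.81 for Mt2, still held the main values. The ratio for Slc30a1 turned negative as a mean over cells (-0.013) and thinned to 1000 UMIs (-0.21), and kept its sign under the other 10. The links of Mt1 and Mt2 with Havcr2 and Gzmc were positive under all 20 alternatives each. For Mt2 with Gzmc in obese cells thinned to 2000 UMIs the interval included 0, at 1.57 (-0.095 to 2.85). Thinning to 2000 UMIs gave 1.81 (lean) and 1.17 (obese) for Mt1 with Havcr2, and 2.90 for Mt1 with Gzmc in lean. It gave 1.49 and 1.29 for Mt2 with Havcr2, and 3.29 for Mt2 with Gzmc in lean. For Slc30a1 with Gzmc in lean it gave 0.61. The intervals of this last value (-2.53 to 2.64) and of Mt2 with Havcr2 in obese (0.35 to 2.13) held the main values of -0.29 and 1.82. A limit of 2 or more UMIs gave 1.73 for Mt1 with Havcr2 in obese and 2.13 for Mt1 with Gzmc in lean. Means over clusters gave 1.5 and 0.83 for Mt1 with Havcr2, 1.52 and 1.21 for Mt1 with Gzmc, 2.04 and 0.79 for Mt2 with Havcr2, 1.60 for Mt2 with Gzmc in lean and 0.24 for Slc30a1 with Havcr2 in obese. Without the 10 highest cells, chosen after seeing the data, the values were 2.40 and 1.38 for Mt1 with Havcr2, 1.41 and 1.13 for Mt1 with Gzmc, 2.30 for Mt2 with Havcr2 in lean and 1.41 and 1.31 for Mt2 with Gzmc. Apart from the construction of each alternative, the cause was not tested. Thinned links of Slc30a1 are left out where a class held no UMI of it. No paired analysis was possible because each diet had 1 library. Depth limits Slc30a1 most, with 106 and 149 UMIs in all.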
